A study of Homo sapiens with 2 samples.

Results

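The plasminogen activator system is described here through 7 genes in BHT101 cells, an established human line from a tumour of the anaplastic thyroid type. The genes were chosen by symbol from the 58735 genes listed: the activators PLAU and PLAT, the receptor genes PLAUR, ANXA2 and S100A10, and the inhibitors SERPINE2 and SERPINB2. All 7 had counts in both libraries. The choice was made with the difference between these same libraries in view, so that difference is given as a description and no test of it was made. RNA sequencing covered 2 libraries. The first came from BHT101 cells labelled as overexpressing SETDB2, a SET domain protein of the family that methylates histone H3 at lysine 9, and is called the SETDB2 library. The second came from BHT101 cells labelled as the overexpression control. Both were grown under the same culture conditions, in DMEM with serum and sodium pyruvate. The vector, the time after its introduction, and whether the cells were 1 clone or a pool are unknown here, because no label states them. Each condition held 1 library, so there is no spread between replicates, and every interval below covers counting error only.

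Plasminogen is a circulating zymogen that urokinase (PLAU) and tissue-type activator (PLAT) cleave to plasmin, a broad protease that degrades fibrin and matrix proteins and activates other proteases and growth factors. Urokinase acts at the cell surface on its anchored receptor, uPAR (PLAUR), while annexin A2 (ANXA2) and its light chain S100A10 (p11) form a complex that binds plasminogen and tissue-type activator. Serpins end the reaction by trapping the activator: SERPINE2 (protease nexin 1) inhibits urokinase and thrombin, and SERPINB2 is a mostly intracellular serpin also known as plasminogen activator inhibitor type 2. Urokinase and its receptor are well known for their part in invasion by carcinoma cells.

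SERPINB2 lies in a cluster of clade B serpin genes on chromosome 18, and the stretch before its transcription start is shown with that of 2 genes it is set beside below. SERPINB7 is the nearest counted gene on one side of SERPINB2, and of its 3 RefSeq starts, at 63753057, 63775418 and 63777781, with 0, 2 and 4 motif matches, the last is shown because it has the most. ANXA2 is the most highly counted of the 7 genes. The sequences are RefSeq promoter windows on GRCh38.p14, shown 5′ to 3′ on the strand of the gene. Each stops where an exon of GENCODE release 29 begins, which left out the last 5, 4 and 57 of the 250 bases before the RefSeq start. Capitals mark the letters of a searched motif on either strand: TATAAA, the AP-1 letters TGANTCA, or the GC box GGGCGG.
SERPINB2, chr18:63887455-63887699, plus strand: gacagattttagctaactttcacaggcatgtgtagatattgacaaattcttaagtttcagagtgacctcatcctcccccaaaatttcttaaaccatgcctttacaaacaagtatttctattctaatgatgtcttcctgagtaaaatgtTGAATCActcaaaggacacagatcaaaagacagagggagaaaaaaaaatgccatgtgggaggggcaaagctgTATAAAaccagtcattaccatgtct
SERPINB7, chr18:63777531-63777776, plus strand: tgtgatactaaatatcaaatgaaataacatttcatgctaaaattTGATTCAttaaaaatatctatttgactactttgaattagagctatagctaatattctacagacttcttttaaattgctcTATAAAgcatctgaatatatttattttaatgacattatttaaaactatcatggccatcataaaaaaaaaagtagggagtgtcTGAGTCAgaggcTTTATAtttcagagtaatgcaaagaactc
ANXA2, chr15:60398044-60398236, minus strand: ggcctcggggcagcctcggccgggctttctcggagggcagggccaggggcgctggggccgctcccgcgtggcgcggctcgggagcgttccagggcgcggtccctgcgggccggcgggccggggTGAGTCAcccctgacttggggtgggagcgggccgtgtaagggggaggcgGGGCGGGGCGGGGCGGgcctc
In SERPINB2 the TATAAA match began 30 bases and the AP-1 match 102 bases before the RefSeq start at position 63887705. In ANXA2 the AP-1 match began 127 bases before the start, and a TATAAA match, in the part not shown, 31 bases before it. SERPINB8, the nearest counted gene on the other side of SERPINB2, also had 4 matches, of AP-1 letters and TATAAA. Its stretch is not shown because all 250 bases lie in annotated exons.

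RefSeq windows of 300 bases, from 250 before to 50 after the start, were at hand for 6 of the 7 genes. These 6 had 8 windows, and a gene is counted where any of its windows matched. AP-1 letters were found for 3 of those 6 (SERPINB2, PLAUR and ANXA2), and TATAAA for 2 (SERPINB2 and ANXA2). GC box letters were found for 4 of the 6 (S100A10, SERPINE2, PLAU and ANXA2). Of all 35116 windows in the table, 7.71% held the AP-1 letters, 11.5% TATAAA and 45.0% the GC box, on either strand. These are shares of windows, so they are not on the same unit as the numbers of genes. No window of the 6 genes held the letters searched for a CRE (TGACGTCA), an ETS site (ACCGGAAG) or an interferon response element, which stood in 1.85%, 2.17% and 3.57% of all windows. These matches describe letters and not binding.

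The SETDB2 library held 34053348 counts over 26027 genes and the control library 33572025 counts over 26299 genes. The 7 genes took 0.233% of the counts in the SETDB2 library and 0.227% in the control library. SETDB2 itself had 1370 counts in the library labelled as overexpressing it and 507 in the control library. U2AF1, the splicing factor named in the study's title, had 377 in the SETDB2 library and 1447 in the control library. That value is uncertain, because only 8.17% of its 75-base transcript pieces are found in no other gene, and its copy U2AF1L5 had 215 and 92. Of 8 thyroid markers, NKX2-1 was at 0 in both libraries, TG had 2 counts in the SETDB2 library and 6 in the control library, and PAX8 had 30 and 42. HHEX, which is not confined to thyroid, had 197 counts in the SETDB2 library and 188 in the control library, most of the 242 and 259 summed over the 8 markers. Epithelial markers were abundant, with 33986 counts of the keratin gene KRT8 in the SETDB2 library and 32748 in the control library. Leukocyte markers summed to 80 counts in the SETDB2 library and 93 in the control library over 6 genes, and endothelial markers to 97 and 136 over 5 genes. Fibroblast markers summed to 9590 and 8644 over 6 genes, nearly all from COL6A3, LUM and PDGFRA, while DCN had 8 and 14. Their part in the results was not tested.

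Below, a gene is called 2-fold higher or lower under a rule of size and counting error, with no measure of spread between replicates. The ratio of its scaled counts must be at least 2-fold, and equality must lie outside its 95% counting interval. A gene was kept when its counts summed to 50 or more and 1 library reached 1 CPM, a count scaled to library size. Of the 14518 genes kept, 2.7% were called in either direction, 1.06% as higher and 1.64% as lower. All 7 genes passed that count filter, and would have passed it with their counts split evenly. Among them 1 was called, SERPINB2, as higher in the SETDB2 library, and none as lower. Since these libraries also guided the choice of genes, nothing is read from that share. The counting interval excluded equality for 4 of the 7, against 51.0% of all kept genes, so at this depth an interval that excludes equality is common. Of all kept genes 49.6% had a log2 ratio above 0, and 8.15% were at least 1.5-fold apart, 3.03% as higher and 5.12% as lower. At 1.5-fold the same SERPINB2 was the 1 gene of the 7 called.

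SERPINB2 (ENSG00000197632, chromosome 18, 63871692 to 63903890, plus strand) had 1855 counts in the SETDB2 library and 486 in the control library. Per length and library size this was 19.97 FPKM (the count divided by gene length and a constant for each library) in the SETDB2 library, with a counting interval of 19.1 to 20.9. It was 5.23 FPKM in the control library, with an interval of 4.77 to 5.71. The intervals do not overlap, and the log2 ratio of scaled counts was 1.92 (1.78 to 2.07), a 3.79-fold higher count in the SETDB2 library. In bulk RNA a change in the share of cells that make a transcript and a change in the amount per cell cannot be told apart.

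Among 12337 protein-coding genes kept, 9 had a log2 ratio at least as large as that of SERPINB2, itself included. With at least its summed count of 2341 there were 5893 protein-coding genes. SERPINB2 was the only 1 of them with a ratio that large. That cutoff is the summed count of SERPINB2 itself. The gene was also chosen with this ratio in view, so its rank is a description only. Among those 5893 genes, 4 genes were 2-fold higher and 4 were 2-fold lower. The higher ones were SERPINB2, the mitotic kinase gene AURKA, the G protein subunit gene GNG11 and the deiodinase gene DIO2, and the lower ones KLHDC7B, MAL2, RSAD2 and PLCG2. Of all 6542 kept genes whose counts summed to 2000 or more, 0.138% were called in either direction, 0.0611% as higher and 0.0764% as lower. Over those genes the log2 ratio had a robust SD of 0.162, and 63.4% had an interval that excluded equality.

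None of the activator and receptor genes reached a 2-fold difference. PLAU (ENSG00000122861, chromosome 10, 73909177 to 73917497), which encodes urokinase, had 6740 counts in the SETDB2 library and 6477 in the control library. Its level was 67.6 FPKM (66.0 to 69.2) in the SETDB2 library and 64.9 FPKM (63.3 to 66.5) in the control library. The 2 intervals overlapped slightly, and the log2 ratio was 0.047 (-0.0025 to 0.096), an interval that holds 0.

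PLAT (ENSG00000104368, chromosome 8, 42175233 to 42207724), which encodes the tissue-type activator, was the least expressed of the genes. It had 85 counts in the SETDB2 library and 126 in the control library, or 0.38 FPKM (0.304 to 0.470) and 0.563 FPKM (0.469 to 0.670). The intervals just touched, and the log2 ratio was -0.58 (-0.99 to -0.17). That is 1.49-fold lower in the SETDB2 library and short of the 2-fold rule, with too few counts to place it closely. On the scale log2(FPKM + 1) the difference was -0.18. In both libraries urokinase was by far the more abundant activator transcript: PLAT stood at 0.00562 of the PLAU level in the SETDB2 library and at 0.00867 in the control library, on the FPKM scale. The ratio of these ratios was 0.648 (0.485 to 0.862).

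PLAUR (ENSG00000011422, chromosome 19, 43646095 to 43670547), the urokinase receptor gene, had 2801 counts in the SETDB2 library and 2607 in the control library. Its FPKM was 18.6 (17.9 to 19.3) in the SETDB2 library and 17.3 (16.6 to 17.97) in the control library, with a log2 ratio of 0.093 (0.016 to 0.17). The interval excluded equality, but the difference was 1.07-fold and lay within the middle range of all kept genes, whose quartiles were -0.17 and 0.15. Relative to its receptor, urokinase stood at 3.64 in the SETDB2 library and 3.75 in the control library on the FPKM scale. The ratio of these ratios was 0.969 (0.909 to 1.03) and its interval holds 1. The levels themselves depend on the gene length: with CCDS transcript lengths, PLAU and PLAUR stood at 80.1 and 59.2 in the SETDB2 library and at 76.9 and 55.01 in the control library.

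ANXA2 (ENSG00000182718, chromosome 15, 60347134 to 60402883) had 51236 counts in the SETDB2 library and 50155 in the control library, or 172 FPKM (170.3 to 173) and 168 FPKM (167 to 169.5). Its log2 ratio was 0.020 (0.0025 to 0.038). The interval is narrow because the counts are high, and it held 0 with total count scaling (0.010), with upper quartile scaling (0.0084) and with ANXA2 summed with its pseudogene copies (0.014). With the GC trend removed the ratio was -0.027. The partner S100A10 (ENSG00000197747, chromosome 1, 151982915 to 151994390) had 12053 counts in the SETDB2 library and 11993 in the control library, or 231 FPKM (227 to 235) and 229.8 FPKM (226 to 234). Its log2 ratio was -0.0033 (-0.040 to 0.033), or 0.074 with the GC trend removed. The S100A10 level divided by the ANXA2 level was 1.35 in the SETDB2 library and 1.37 in the control library, with a ratio of ratios of 0.984 (0.956 to 1.01). That interval holds 1.

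ANXA2 has a processed copy, ANXA2P2, on chromosome 9. The copy had 2805 counts in the SETDB2 library and 2965 in the control library, and a log2 ratio of -0.091 (-0.17 to -0.016). Of the 75-base pieces of ANXA2P2, 43.9% are also found in ANXA2, but only 4.1% of those of ANXA2 are found in ANXA2P2, so the value of the copy is the less certain. The other copies, ANXA2P1 and ANXA2P3, had 1 and 0 counts in the SETDB2 library and 2 and 0 in the control library. The summed counts of the gene and its 3 copies were 54042 in the SETDB2 library and 53122 in the control library.

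SERPINE2 (ENSG00000135919, chromosome 2, 223975112 to 224039319), which encodes protease nexin 1, had 4514 counts in the SETDB2 library and 4455 in the control library. Its level was 15.02 FPKM (14.6 to 15.5) in the SETDB2 library and 14.8 FPKM (14.4 to 15.3) in the control library. These intervals overlap widely, and the log2 ratio was 0.0085 (-0.052 to 0.069). With the GC trend removed it was -0.069, so its sign depends on that step. SERPINB2 and SERPINE2 thus had unlike ratios between the libraries. SERPINB2 divided by SERPINE2, per length, was 1.33 in the SETDB2 library and 0.353 in the control library, a ratio of ratios of 3.77 (3.38 to 4.21).

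**Figure D1:**
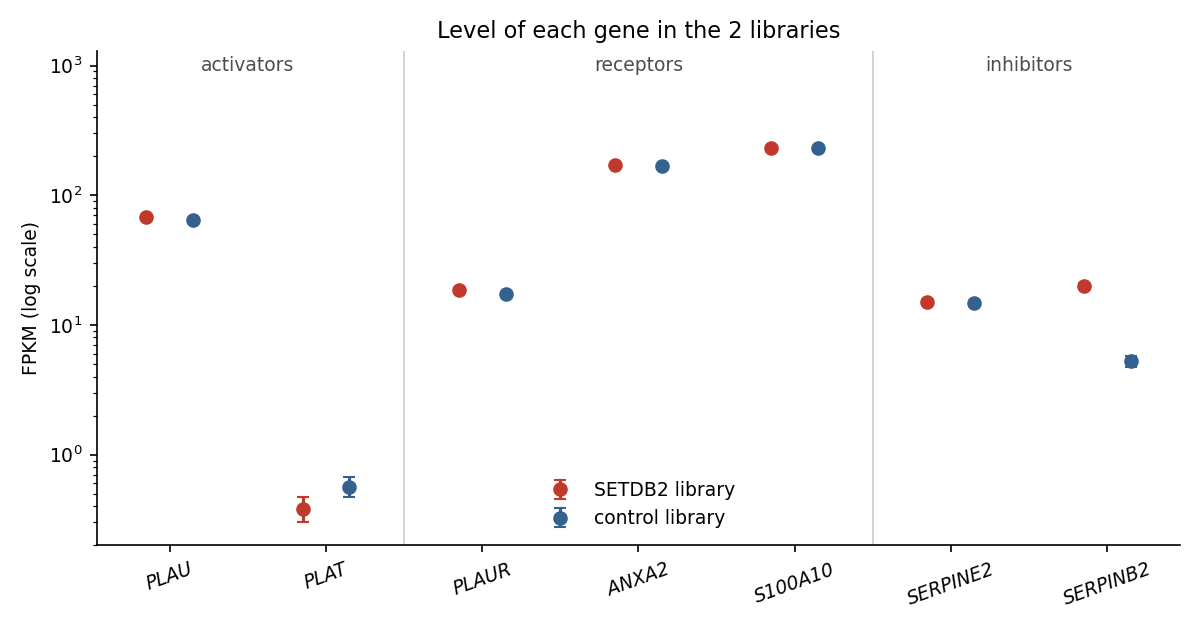
Level of each gene in FPKM (log axis) in the SETDB2 library (red, left of each pair) and the control library (blue, right), grouped into activators, receptors and inhibitors; bars are exact Poisson 95% counting intervals and are mostly smaller than the points. SERPINB2 is the gene whose points stand clearly apart, at 19.97 and 5.23 FPKM, while PLAT lies far below the rest in both libraries.

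**Figure D2:**
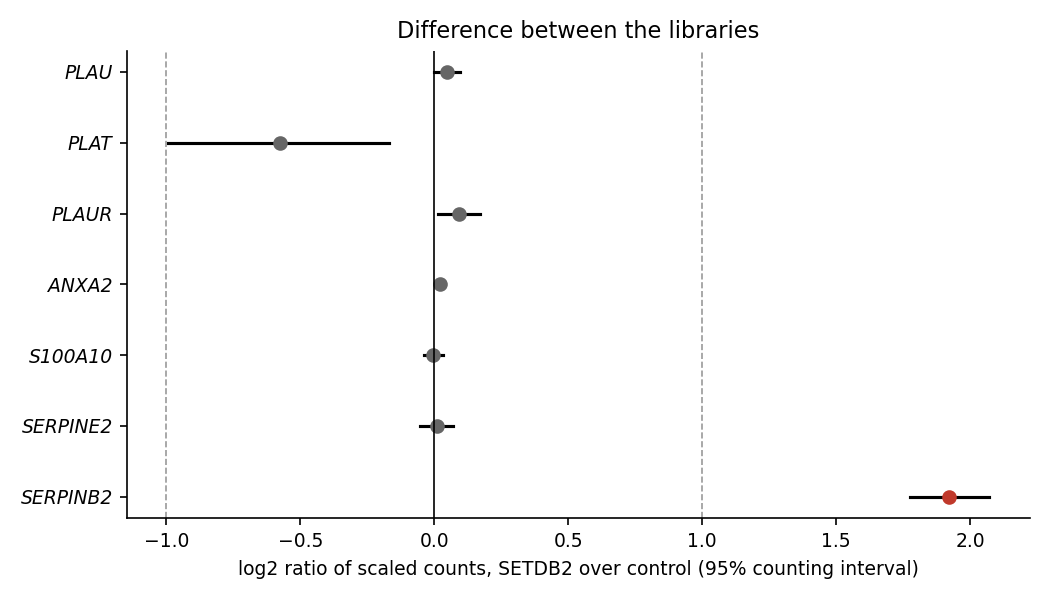
Log2 ratio of scaled counts, SETDB2 over control, for the same 7 genes, with 95% counting intervals; dashed lines mark 2-fold and the red point passes the 2-fold rule. SERPINB2 lies at 1.92, PLAT at -0.58 with a wide interval, and the other 5 genes within 0.1 of 0.

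Of the 2 inhibitor genes among the 7, SERPINB2 differed more between the libraries when set against urokinase. SERPINB2 over PLAU, per length, was 0.295 in the SETDB2 library and 0.0806 in the control library, a ratio of ratios of 3.67 (3.30 to 4.08). SERPINE2 over PLAU was 0.222 in the SETDB2 library and 0.228 in the control library, a ratio of ratios of 0.974 (0.923 to 1.03), an interval that holds 1. Ratios of 2 genes within a library, given here for 6 pairs, do not depend on the scaling between libraries.

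On the FPKM scale of the deposited tables, the order of levels differed between the libraries only at SERPINB2. The order in the SETDB2 library was S100A10, ANXA2, PLAU, SERPINB2, PLAUR, SERPINE2 and PLAT. In the control library SERPINB2 came after SERPINE2, and the order of the other 6 was the same. The counting intervals of neighbours in this order overlapped only for SERPINB2 and PLAUR in the SETDB2 library. Among protein-coding genes with a count, SERPINB2 stood at percentile 85.8 of FPKM in the SETDB2 library and at percentile 57.5 in the control library, while PLAU stood at 96.8 in both. The order, and every ratio of levels between 2 genes, depends on the gene length used, while a ratio of ratios does not. The tables give ANXA2 a length of 8824 bases, summed over the exons of 38 annotated transcripts, whereas the median length of its CCDS transcripts is 1444 bases. With CCDS transcript lengths for every gene, a setting chosen after seeing the data, ANXA2 came first of the 7 in both libraries, at 1049.8 on the same scale in the SETDB2 library and 1027 in the control library. S100A10 then had 392.3 in the SETDB2 library and 390.0 in the control library. On those lengths SERPINB2, at 26.98 and 7.06, stayed below SERPINE2 and PLAUR in both.

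**Figure D3:**
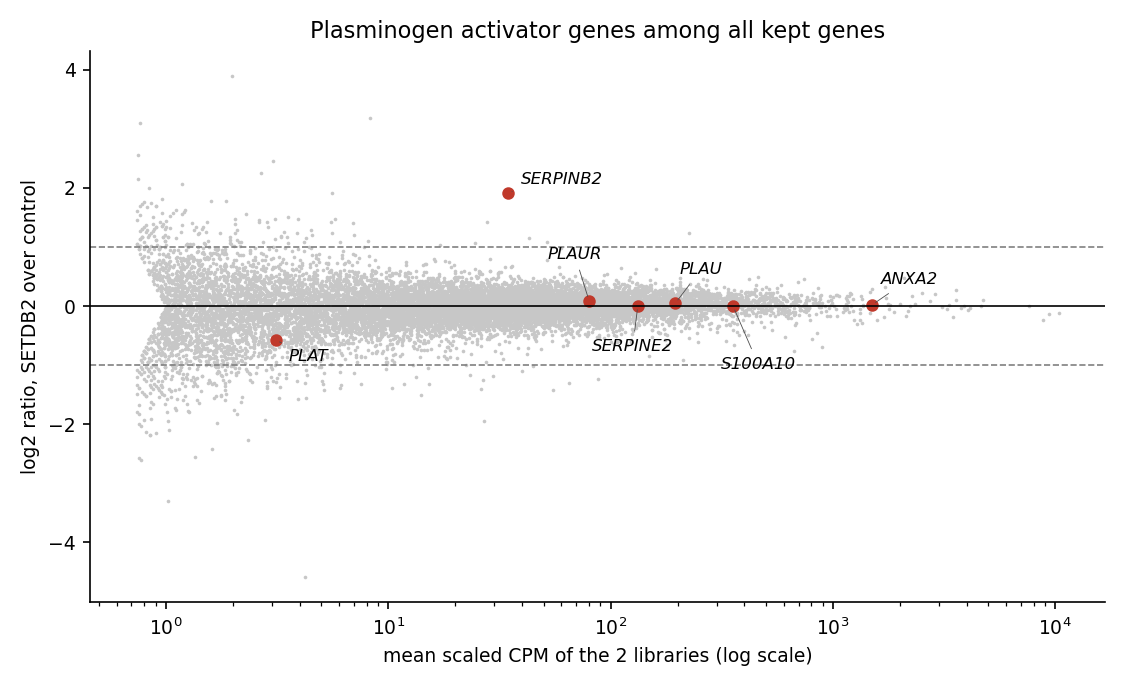
Log2 ratio of scaled counts, SETDB2 over control, against the mean scaled CPM of the 2 libraries (log axis) for the 14518 kept genes (grey) with the 7 genes in red; dashed lines mark 2-fold. SERPINB2 lies above the grey cloud at its level, and the others lie among the grey points, PLAT at the sparse left side where ratios spread most.

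The clade B serpins are intracellular relatives of SERPINB2 encoded in 2 clusters. Of the 13 listed, 10 lie on chromosome 18 within 543 kb and 3 on chromosome 6. On chromosome 18, 6 passed the count filter, and they did not share a direction. SERPINB7, an epidermal serpin 66.3 kb from SERPINB2, had 56 counts in the SETDB2 library and 23 in the control library, a log2 ratio of 1.26 (0.55 to 2.04), and was called higher. SERPINB8, an inhibitor of furin 66.0 kb away on the other side, had 952 counts in the SETDB2 library, against 875 in the control library (log2 ratio 0.11, -0.023 to 0.25). SERPINB5, which encodes maspin, had 1031 counts in the SETDB2 library and 695 in the control library, a ratio of 0.56 (0.42 to 0.70).

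SERPINB4 and SERPINB3, the squamous cell carcinoma antigens, were lower. SERPINB4 had 36 counts in the SETDB2 library and 111 in the control library, a log2 ratio of -1.62 (-2.22 to -1.08), and was called. SERPINB3 had 20 counts in the SETDB2 library and 38 in the control library (log2 ratio -0.92, -1.80 to -0.12). It was kept only because its counts are uneven. It is also the less certain of the pair, since 59.7% of its pieces are found in no other gene, against 91.5% for SERPINB4. SERPINB10, whose span overlaps that of SERPINB2 on the same strand and which shares 17.4% of the pieces of SERPINB2, had 2 counts in the SETDB2 library and 0 in the control library. SERPINB11, SERPINB12 and SERPINB13 were at 0 in both, where 0 counts allow up to 3.

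On chromosome 6, SERPINB1, an inhibitor of neutrophil elastase, had a log2 ratio of -0.090 (-0.17 to -0.014), and SERPINB6 -0.051 (-0.12 to 0.023). SERPINB9, which inhibits granzyme B, had 447 counts in the SETDB2 library and 628 in the control library, a ratio of -0.50 (-0.68 to -0.32). Without SERPINB2, 8 of 12 clade B genes were kept. Of the 8, 1 was called higher and 1 lower, beside 1.06% and 1.64% of all kept genes. The median log2 ratio was -0.070, beside -0.0020 over all kept genes. Where counts had to sum to 200 or more, 5 were kept and none was called, since SERPINB7 and SERPINB4 fall below that count.

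**Figure D4:**
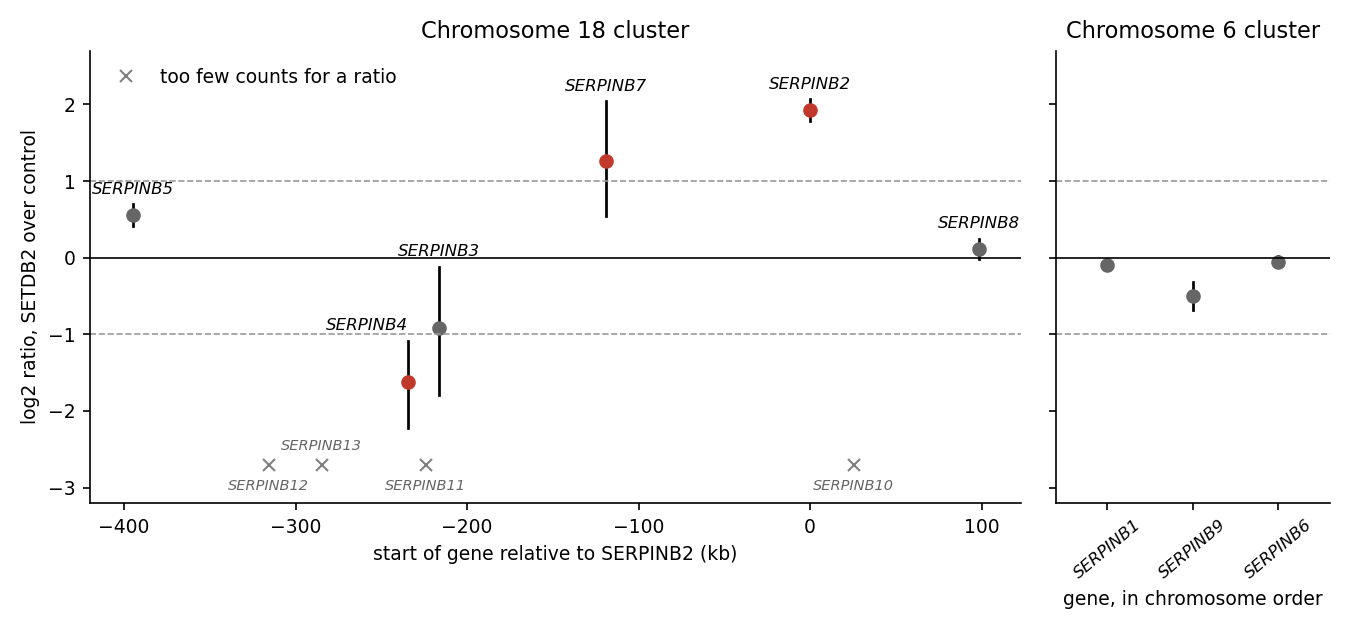
Log2 ratio of scaled counts, SETDB2 over control, for the clade B serpins, placed in kb from the start of SERPINB2 on chromosome 18 (left) and in order on chromosome 6 (right); bars are 95% counting intervals, red points pass the 2-fold rule, dashed lines mark 2-fold, and crosses mark genes left out by the count filter. SERPINB2 and SERPINB7 lie above 1 and SERPINB4 below -1, while SERPINB8, on the other side of SERPINB2, lies near 0.

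Protein-coding neighbours of the other 6 genes were not called. Their log2 ratios ran from -0.25 for IKBKB, next to PLAT, to 0.27 for BNIP2, on the far side of a 658 kb gap from ANXA2. The neighbours of PLAU, CAMK2G and VCL, had ratios of -0.018 and 0.060. C10orf55 overlaps PLAU on the opposite strand and had 11 counts in the SETDB2 library and 19 in the control library. The strand setting of the count is not given, and 16.6% of the pieces of PLAU are shared with it. RN7SL368P, which overlaps PLAUR, had 11 counts in the SETDB2 library and 1 in the control library, and AC087385.1, which overlaps ANXA2, had 5 and 0.

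The 5 protein-coding genes with at least 200 counts in sum whose log2 ratio lay nearest that of SERPINB2 were taken over these 2 libraries only. They were the cancer-testis gene MAGEA2, at a distance of 0.00053, then the secreted glycoprotein gene FSTL1 (0.42), the WNT antagonist gene FRZB (0.45), the diacylglycerol kinase gene DGKI (0.45) and the RNA-binding protein gene RBM24 (0.50). MAGEA2 had 299 counts in the SETDB2 library and 78 in the control library, but its near-identical copy MAGEA2B had 46 and 78, and 6.79% of the pieces of MAGEA2 are unique to it, so its ratio is uncertain. FSTL1 had 178 counts in the SETDB2 library and 62 in the control library. The other 4 genes thus lay at least 0.42 below SERPINB2.

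Plasminogen itself was nearly uncounted. PLG, a gene expressed mainly in liver, had 2 counts in each library, so BHT101 cells held transcripts of the activators, receptors and inhibitors but hardly any of the zymogen. Of 12 genes for plasminogen and its substrates 7 were kept, none was called, 6 lay below 0, and the median log2 ratio was -0.32, beside -0.0020 over all kept genes. Fibronectin, FN1, had 23188 counts in the SETDB2 library and 37034 in the control library, a ratio of -0.69 (-0.71 to -0.66). LAMA3, a chain of laminin-332, was at -0.66 (-0.72 to -0.59), and HGF, a growth factor that is activated by cleavage, at -0.46 (-1.17 to 0.22). Thrombospondin, THBS1, which binds plasminogen and its activators, was at 0.37 (0.32 to 0.41).

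Other activating proteases, listed together with the cofactor tissue factor, were mostly silent. Of 13 genes 3 were kept, 7 were at 0 in both libraries, and none of the 3 was called, with a median log2 ratio of 0.11. Coagulation factor XII, F12, had 79 counts in the SETDB2 library and 116 in the control library, a ratio of -0.56 (-0.996 to -0.14). Matriptase, ST14, was at 0.18 (-0.30 to 0.67). Tissue factor, F3, which is not itself a protease, was at 0.11 (0.012 to 0.22), and its value is the list median.

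Of 14 other inhibitors, several of them serpins that also stand in another list, 8 were kept, 5 lay above 0 and none was called, with a median log2 ratio of 0.16. TFPI2, a Kunitz inhibitor of plasmin and trypsin, was the farthest from 0, with 1483 counts in the SETDB2 library and 926 in the control library and a ratio of 0.67 (0.55 to 0.79), or 1.59-fold. SPINT1, a membrane Kunitz inhibitor of matriptase and of the HGF activator, was at 0.47 (0.056 to 0.90), and TFPI, the inhibitor of the tissue factor pathway, at 0.25 (0.19 to 0.31). Of 20 serpins outside clade B other than SERPINE2, 5 were kept, 7 were at 0 in both libraries and none was called, with a median of -0.010. SERPINA1, which encodes alpha-1 antitrypsin, was at -0.38 (-0.50 to -0.27), and SERPINI1, which encodes neuroserpin, at 0.20 (-0.16 to 0.57). SERPINH1, a collagen chaperone, was at 0.060 (0.0041 to 0.12).

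Endocytic receptors, among them those that clear activator and inhibitor complexes, did not pass the 2-fold rule either. They were listed with LRPAP1, which encodes a protein associated with such receptors. Of 9 genes 8 were kept, with a median log2 ratio of -0.013. LRP1, the main endocytic receptor for these complexes, had 6664 counts in the SETDB2 library and 10047 in the control library, a ratio of -0.60 (-0.65 to -0.56), or 1.52-fold lower. VLDLR was at 0.32 (0.20 to 0.45), MRC2, which encodes the urokinase receptor associated protein, at 0.22 (0.12 to 0.32), and LRP8 at 0.17 (0.11 to 0.24). Of 5 genes for other proteins that bind plasminogen or the tissue-type activator, all were kept and 4 lay above 0, with a median of 0.16, or 0.055 with the GC trend removed. Among them PLGRKT, a transmembrane plasminogen receptor, was at 0.36 (0.17 to 0.55), CKAP4 at 0.18 (0.13 to 0.24), RUVBL1 at -0.17 (-0.21 to -0.12) and HMGB1 at 0.16 (0.13 to 0.19).

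Surface partners of the urokinase receptor had a median log2 ratio of -0.055 over 9 of 10 genes kept, with none called and 6 below 0. The integrin gene ITGA3 was the farthest from 0, with 22195 counts in the SETDB2 library and 32359 in the control library and a ratio of -0.55 (-0.58 to -0.53). ITGA5 was at -0.23 (-0.31 to -0.15), ITGB5 at -0.15 (-0.19 to -0.11) and caveolin, CAV1, at 0.14 (0.12 to 0.17).

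Relatives of annexin A2 and S100A10 also held no called gene. Of 12 other annexins 11 were kept, with a median log2 ratio of 0.0081. ANXA10 had 318 counts in the SETDB2 library and 180 in the control library, a ratio of 0.81 (0.54 to 1.08), and ANXA9 had 45 and 72, a ratio of -0.68 (-1.26 to -0.13). ANXA6 was at 0.29 (0.23 to 0.35) and ANXA8L1, which is uncertain because ANXA8 is a near-identical copy, at -0.27 (-0.49 to -0.050). Of 16 other S100 genes 11 were kept, 8 lay below 0, and the median was -0.20, or -0.059 over the 8 whose counts summed to 200 or more. S100P had 2486 counts in the SETDB2 library and 3536 in the control library, a ratio of -0.52 (-0.59 to -0.44). S100A2 was at -0.44 (-0.53 to -0.36), S100A5 at -0.30 (-0.91 to 0.30) and S100A3 at -0.26 (-0.43 to -0.093), while S100A11, the gene next to S100A10, was at 0.032 (-0.0049 to 0.070).

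Of 15 genes for metalloproteases and growth factor carriers that plasmin acts on, 10 were kept. Of the 10, 1 was called higher and none lower, beside 1.06% and 1.64% of all kept genes. The median log2 ratio was 0.16, beside -0.0020 over all kept genes. The called gene was the interstitial collagenase gene MMP1, with 67 counts in the SETDB2 library and 26 in the control library, a ratio of 1.34 (0.68 to 2.07). Where counts had to sum to 200 or more, 8 were kept, none was called and the median was 0.032. MMP2, the gelatinase, had 2777 counts in the SETDB2 library and 1928 in the control library (log2 ratio 0.52, 0.43 to 0.60). IGFBP5, a carrier of insulin-like growth factor, was at 0.79 (0.20 to 1.43), and LTBP1, a carrier of latent TGF-beta, at -0.47 (-0.53 to -0.42).

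**Figure D5:**
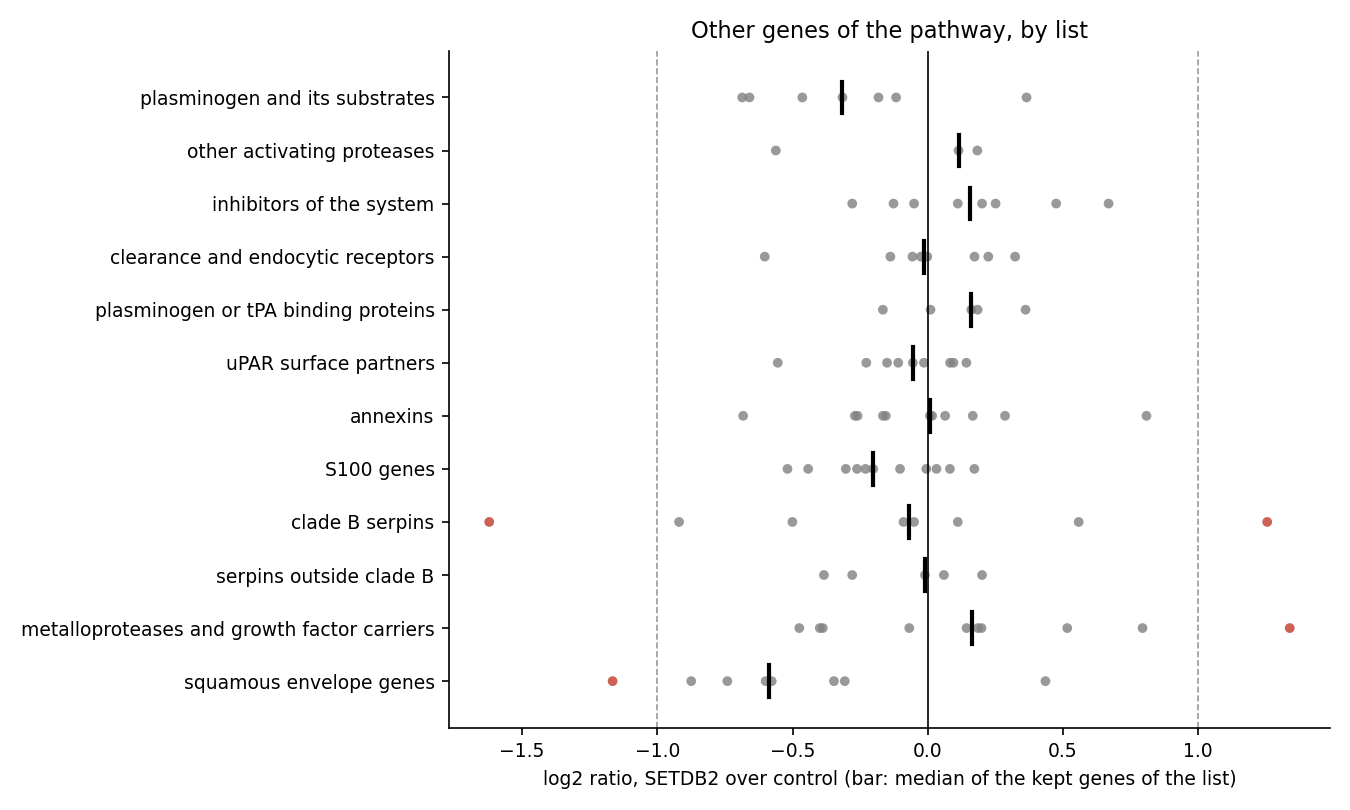
Log2 ratio of scaled counts, SETDB2 over control, for the kept genes of 12 lists (rows); each point is a gene, black bars are list medians, dashed lines mark 2-fold and red points pass the 2-fold rule. Called genes appear in 3 rows: SERPINB7 and SERPINB4 among clade B serpins, MMP1 among metalloproteases and KRT16 among squamous envelope genes.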

How the data were processed

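RNA from 2 BHT101 cultures, 1 per condition, was purified with TRIzol and a column and sequenced by a standard Illumina procedure, per the labels' protocols. Per the submitters' processing notes, the tools were TopHat2 2.0.9, Bowtie2 2.0.6, Cuffdiff 2.1.1 and Cufflinks 2.1.1, with no role stated. Not given in the sources used here were the program that counted reads, its use of strand and its treatment of reads with several matches. Whole-number counts per gene and FPKM values were deposited by the authors. Within 0.01%, each deposited FPKM equalled count over the table's gene length and 1 constant per library, so it adds no measurement. Of the 58735 genes, 58724 had the start, end and strand of GENCODE 29 (GRCh38).

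Counts were scaled with TMM in edgeR 4.0.16 (R 4.3.3). The log2 ratio used a prior count of 0.5, with 95% intervals obtained from the exact Clopper-Pearson limits of the SETDB2 share of both counts. Intervals of FPKM are exact Poisson. Ratios of 2 genes were conditional odds ratios with exact intervals (scipy 1.17.1). PCR copies are not independent molecules, so intervals cover counting error only. No test of edgeR or DESeq2 was used, as replicates are lacking. The GC trend was the median ratio in 20 bins of GC content of the longest transcript. Pieces of 75 bases were compared over all GENCODE 29 transcripts. Scripts were tested on simulated data.

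The members and the 12 gene lists were chosen with earlier results of these data known. Genes named are the members, called genes and up to 4 with the largest ratio in each list, all clade B serpins, overlapping genes, copies and neighbours, and the 5 nearest SERPINB2 in ratio; some items that this rule or a list holds are not reported here. AURKA, GNG11, DIO2, KLHDC7B, MAL2, RSAD2 and PLCG2 were named after their values were seen. Alternatives were DESeq2 1.42.0 size factors, total count and upper quartile scaling, other prior counts, filters and thresholds, FPKM, a GC correction and summed copies.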

Additional observations from a re-analysis of the deposited data

How the results depend on the processing

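SERPINB2 was called higher under all scalings, filters, prior counts and the GC correction that were run, with log2 ratios from 1.75 to 1.92; the lowest, 1.75, came from log2(FPKM + 1), a scale that shrinks ratios of low values. Of 93 alternative values for the 7 genes and the pairs computed, 89 stayed within the counting interval or the count. With the GC trend removed SERPINE2 moved to -0.069, ANXA2 to -0.027 and S100A10 to 0.074, each still far below 2-fold, and SERPINB2 to 1.84; the cause was not tested. With a 1.5-fold rule the numbers called among the 7 remained 1 higher and 0 lower. Of 216 alternative values for the lists 17 moved, 8 of them without a count filter, where HGFAC, SERPINA5, ANXA13 and SPRR2A, each at 0 in 1 library, are added. The annexin median then changed sign, to -0.070. With the GC trend removed the medians of the endocytic receptor list (0.018) and of serpins outside clade B (0.053) changed sign. Lower calls among clade B serpins numbered 2 in that setting. No paired analysis was possible because each condition held 1 library and the labels number no replicates. Low counts limit PLAT among the 7 genes, with 85 and 126, and SERPINB3, SERPINB4, SERPINB7, MMP1, HGF, ANXA9 and CSTA among the others.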

Other observations

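SERPINB2 is also known as a keratinocyte protein, so genes of the squamous cell envelope were listed beside it. Of 15 such genes 8 were kept, 1 was called lower and none higher, beside 1.64% and 1.06% of all kept genes. Of the 8, 7 lay below 0, while 49.6% of all kept genes lay above 0. The median log2 ratio was -0.59, beside -0.0020 over all kept genes. Where counts had to sum to 200 or more, 3 were kept, 1 was called lower and the median was -0.75. The keratin gene KRT16 had 90 counts in the SETDB2 library and 201 in the control library, a log2 ratio of -1.17 (-1.54 to -0.80). Periplakin, PPL, had 356 counts in the SETDB2 library and 591 in the control library, a ratio of -0.74 (-0.94 to -0.55). The protease inhibitor genes CSTA and SLPI had 19 and 59 counts in the SETDB2 library and 35 and 89 in the control library, with ratios of -0.87 (-1.78 to -0.047) and -0.60 (-1.10 to -0.11). CSTA was kept only because its counts are uneven. SPRR1A, SPRR1B and KRT6A were at 0 in both libraries. The interval of SPRR2D, at -0.58 (-1.21 to 0.027), and that of TGM1, at -0.35 (-0.92 to 0.21), held 0. Across the list 5 of the 8 intervals excluded equality, beside 51.0% of all kept genes. SERPINB2, at 1.92, differed in sign from 7 of the 8 kept genes of this list, not all of them clearly below 0. The other kept gene, SPRR3, was at 0.44 (-0.098 to 0.98). Below the count filter, IVL, SPRR2A and KRT13 had 5, 9 and 2 counts in the SETDB2 library and 0 in the control library. PI3 had 2 and 6. Among clade B serpins, SERPINB4 and SERPINB3, which are also squamous genes, lay below 0 as well. SERPINB7, an epidermal serpin, and SERPINB5 lay above 0, at 1.26 and 0.56.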
